A study of Homo sapiens with 21 samples.

Results

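The 8 genes described here code for secreted and apical proteins of the mammary gland and of apocrine epithelium. They are SCGB1D2 (lipophilin B), SCGB2A2 (mammaglobin A), PIP (prolactin-induced protein), AZGP1 (zinc-alpha-2-glycoprotein), LTF (lactoferrin), CEL (bile salt-stimulated lipase), the mucin MUC1 and CLCA2, a member of the calcium-activated chloride channel regulator family. They were chosen by symbol from the 16553 genes measured, partly for differences already seen between 3D and flat culture and with earlier antibody exposure. Their values in those contrasts are therefore given as a description, with no p. The comparisons that carry a p each share a group of libraries with those contrasts, so the p-values are not fully independent of the choice. All 8 genes were measured and passed the filter on low counts, LTF only through 2 libraries each of treated aggregates and primed monolayers, where it was high. LTF is therefore described on its own, and counts of called genes are over the other 7.

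The cells were AU565, an established line of ERBB2-amplified breast cancer labelled wild type, grown in RPMI with serum. Trastuzumab, which binds the HER2 receptor that ERBB2 encodes, was given to 5 of the 7 groups of 3 libraries. Primed and treated aggregates came from cells exposed to 20 µg/ml for 24 h as a monolayer, then held for 96 h as aggregates in a liquid overlay with 5% matrigel and given 50 µg/ml for 24 h. Treated aggregates had the 96 h in 3D and the 50 µg/ml dose, primed aggregates had the 20 µg/ml exposure and the 96 h in 3D, and untreated aggregates had the 96 h alone. Primed monolayers had 20 µg/ml for 24 h and 96 h more, acutely exposed monolayers had 20 µg/ml for 24 h, and untreated monolayers were incubated without antibody. The aggregates given the later dose were thus also 24 h older than the aggregates not given it. Whether the replicates were separate cultures is not stated in the labels, and p-values therefore measure the spread between these libraries, which may be technical.

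Total counts were 15005070 to 26921113 per library. The 9 luminal and ERBB2-amplicon markers listed for the line were detected in every library and summed to 14650 to 23280 CPM, which are counts scaled to library size after TMM. ERBB2 was the highest of them in every group, and the sum says little of CDH1. The log2 difference of CDH1 was −3.06 (SE 0.632) in primed against untreated monolayers. It was −2.95 (SE 0.488) in primed and treated against primed aggregates. Both of these comparisons cross the library sets described next. So does primed aggregates against primed monolayers, where the difference of CDH1 was 3.68 (SE 0.602). Within the set rich in TYRP1 it was −0.35 (SE 0.427) in untreated aggregates and 0.71 (SE 0.383) in acutely exposed monolayers, each against untreated monolayers. In primed against untreated aggregates it was 0.98 (SE 0.414), and none of these within-set differences passed. The libraries fell into 2 sets by transcripts of other tissues. The 9 libraries of primed and treated aggregates, treated aggregates and primed monolayers held 0.825 to 22.8 CPM of UMOD, a kidney protein, and 0 to 0.256 CPM of TYRP1, a melanocyte enzyme. The other 12 held 0 to 0.0588 CPM of UMOD and 5.70 to 33.1 CPM of TYRP1. Where a comparison crosses the sets, set and treatment cannot be told apart. The cardiac myosin MYH7 was above 1 CPM in 6 of the 12 libraries, namely acutely exposed monolayer replicates 2 and 3, untreated aggregate replicates 1 and 2 and untreated monolayer replicates 1 and 2.

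Secretory epithelium of the breast and of apocrine sweat glands makes these proteins for milk, sweat and other fluids. Secretoglobins are small secreted dimers, and mammaglobin A and lipophilin B form a complex with each other. PIP and AZGP1 are classical products of apocrine cells and are induced by androgen in breast cancer cells. MUC1 is a transmembrane mucin of the apical surface, CEL digests fat, including in human milk, and LTF binds iron in milk, tears and neutrophil granules.

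SCGB1D2 (Entrez 10647) lies at chr11:62242239-62244812 and SCGB2A2 (Entrez 4250) at chr11:62270158-62273160, both on the plus strand of GRCh38.p14 and 25346 bases apart. PIP (Entrez 5304) lies at chr7:143132077-143139739 on the plus strand, AZGP1 (Entrez 563) at chr7:99966730-99976031 on the minus strand and CEL (Entrez 1056) at chr9:133061981-133071861 on the plus strand. MUC1 (Entrez 4582) lies at chr1:155185824-155192915 and LTF (Entrez 4057) at chr3:46435645-46485234, both on the minus strand. CLCA2 (Entrez 9635) lies at chr1:86424171-86456553 on the plus strand. No other gene in the RefSeq table of that assembly overlapped any of the 8.

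The promoter windows of 4 members are shown because SCGB1D2 and SCGB2A2 kept nearly the same order of levels across the groups, PIP and SCGB2A2 rose with antibody in flat culture, and CEL moved against SCGB2A2 when aggregates were dosed. They come from RefSeq (GRCh38.p14), run 5′ to 3′ from 250 bases before to 50 bases after the annotated start, and carry the motifs found in capitals.
SCGB1D2: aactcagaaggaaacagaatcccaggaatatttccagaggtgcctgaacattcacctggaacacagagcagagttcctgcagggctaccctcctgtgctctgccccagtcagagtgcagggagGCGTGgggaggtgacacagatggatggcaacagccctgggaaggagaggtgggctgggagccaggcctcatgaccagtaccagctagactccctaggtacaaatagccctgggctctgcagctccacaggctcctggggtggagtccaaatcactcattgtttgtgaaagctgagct
SCGB2A2: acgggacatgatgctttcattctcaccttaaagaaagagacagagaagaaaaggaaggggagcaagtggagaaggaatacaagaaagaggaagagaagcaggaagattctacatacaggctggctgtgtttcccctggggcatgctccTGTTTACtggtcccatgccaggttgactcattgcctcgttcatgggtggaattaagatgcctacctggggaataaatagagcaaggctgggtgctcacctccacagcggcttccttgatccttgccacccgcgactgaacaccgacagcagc
PIP: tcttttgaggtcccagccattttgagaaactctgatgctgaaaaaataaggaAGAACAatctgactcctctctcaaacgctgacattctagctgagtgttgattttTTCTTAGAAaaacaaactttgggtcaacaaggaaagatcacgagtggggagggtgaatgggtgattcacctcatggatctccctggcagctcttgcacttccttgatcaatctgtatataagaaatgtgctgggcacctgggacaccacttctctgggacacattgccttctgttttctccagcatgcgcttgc
CEL: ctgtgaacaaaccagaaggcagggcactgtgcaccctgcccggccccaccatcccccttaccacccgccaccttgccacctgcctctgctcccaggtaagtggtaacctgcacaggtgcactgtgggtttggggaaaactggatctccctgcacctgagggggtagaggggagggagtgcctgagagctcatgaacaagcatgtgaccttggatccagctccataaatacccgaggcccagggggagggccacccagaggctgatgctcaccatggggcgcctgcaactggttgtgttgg
The windows lie on the plus strand at chr11:62241989-62242288, chr11:62269908-62270207, chr7:143131827-143132126 and chr9:133061731-133062030. They were searched on both strands for the androgen and glucocorticoid receptor core AGAACA, the forkhead motif TGTTTAC, the STAT5 motif TTCNNNGAA, the GATA motif AGATAA, the hypoxia element as ACGTG or as GCGTG, and the TATA box TATAAA. SCGB1D2 held GCGTG at base −127 from the start, and SCGB2A2 held TGTTTAC at −102. PIP held AGAACA at −198 and TTCNNNGAA at −144, while CEL held none of the 7. Of 35116 promoter windows of this length, 36.5% held GCGTG, 21.4% ACGTG, 14.8% AGAACA, 11.5% TATAAA, 10.3% AGATAA, 7.66% TTCNNNGAA and 3.42% TGTTTAC. None of the matches in these 4 windows overlapped another. Among windows not shown, CLCA2 held AGAACA on both strands, TTCNNNGAA and TATAAA, MUC1 held AGAACA on both strands and TATAAA, and AZGP1 held none of the 7. LTF has 3 annotated starts, each with at least 1 of the motifs in its window.

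Every untreated aggregate library lay above every untreated monolayer library for the 2 secretoglobins, CEL, MUC1, AZGP1 and PIP. The 2 secretoglobins and CEL differed most. Of all genes 64.1% were called between these groups, 32.9% higher, and this contrast took part in the choice of the 8 genes. The share of all genes without overlap is not given. SCGB2A2 in aggregates was at 940.2, 839 and 944 CPM with priming and treatment, 1286, 1232 and 1270 CPM with treatment, 1588, 1210 and 1229 CPM with priming and 964, 916 and 1221 CPM without antibody. In monolayers it was at 17.5, 16.1 and 17.5 CPM with priming, 69.4, 71.5 and 72.5 CPM with acute exposure and 41.3, 40.7 and 42 CPM without antibody. Every aggregate library was thus above every monolayer library, and the 3 monolayer groups did not overlap each other. Untreated aggregates differed from untreated monolayers by 4.64 (SE 0.115) on the log2 scale. Since RNA was taken from whole cultures, more RNA per cell and more cells that make it cannot be told apart.

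SCGB1D2 had the same split at a lower level. Its aggregate values were 72.2, 60.7 and 73.9 CPM with priming and treatment, 88.7, 83.6 and 87.4 CPM with treatment, 101, 81.7 and 84.1 CPM with priming and 66.5, 64.3 and 88.3 CPM without antibody. Its monolayer values were 1.1, 0.638 and 2.09 CPM with priming, 3.29, 2.75 and 3.33 CPM with acute exposure and 2.13, 2.46 and 2.17 CPM without antibody. The primed monolayer values rest on 16, 10 and 33 counts. The log2 difference between untreated aggregates and untreated monolayers was 5.00 (SE 0.179).

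**Figure D1:**
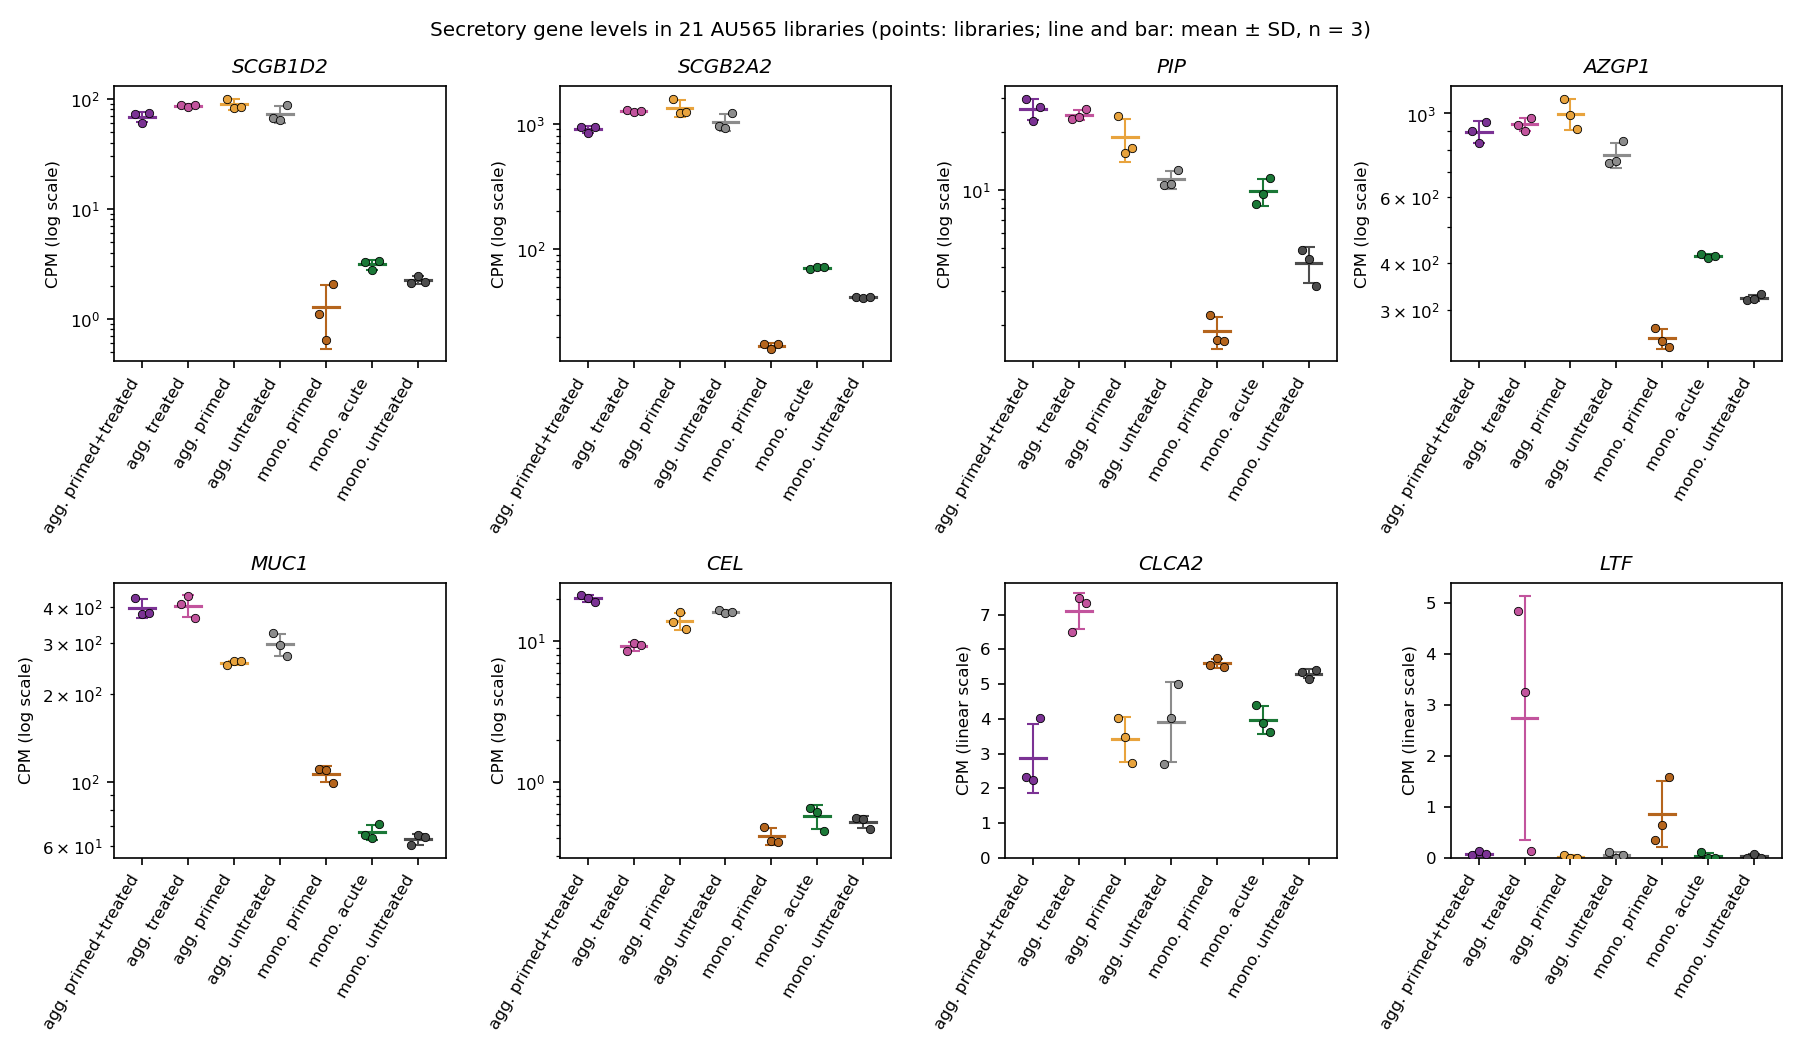
Level of each gene in library-scaled counts (CPM) in every library, by group from primed and treated aggregates on the left to untreated monolayers on the right; points are libraries, and lines and bars are the mean and SD (n = 3). The axis is logarithmic except for CLCA2 and LTF, and SCGB1D2, SCGB2A2, AZGP1, MUC1 and CEL are higher in every aggregate library than in every monolayer library.

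The ratio of SCGB2A2 to SCGB1D2 counts moved far less than either gene. It averaged 13.2 ± 0.545 in primed and treated aggregates, 14.6 ± 0.119 in treated aggregates, 15.1 ± 0.624 in primed aggregates and 14.2 ± 0.33 in untreated aggregates (SD, n = 3 each). In monolayers it averaged 16.5 ± 8.42 with priming, 22.9 ± 2.69 with acute exposure and 18.4 ± 1.59 without antibody. The wide spread in primed monolayers goes with the low SCGB1D2 counts there. Over the 7 group means of log2 CPM, SCGB2A2 was the gene most like SCGB1D2 among 13127 compared (Pearson r = 0.996), and SCGB1D2 the gene most like SCGB2A2. These points share culture form, depth and library set, so the value is a description.

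**Figure D2:**
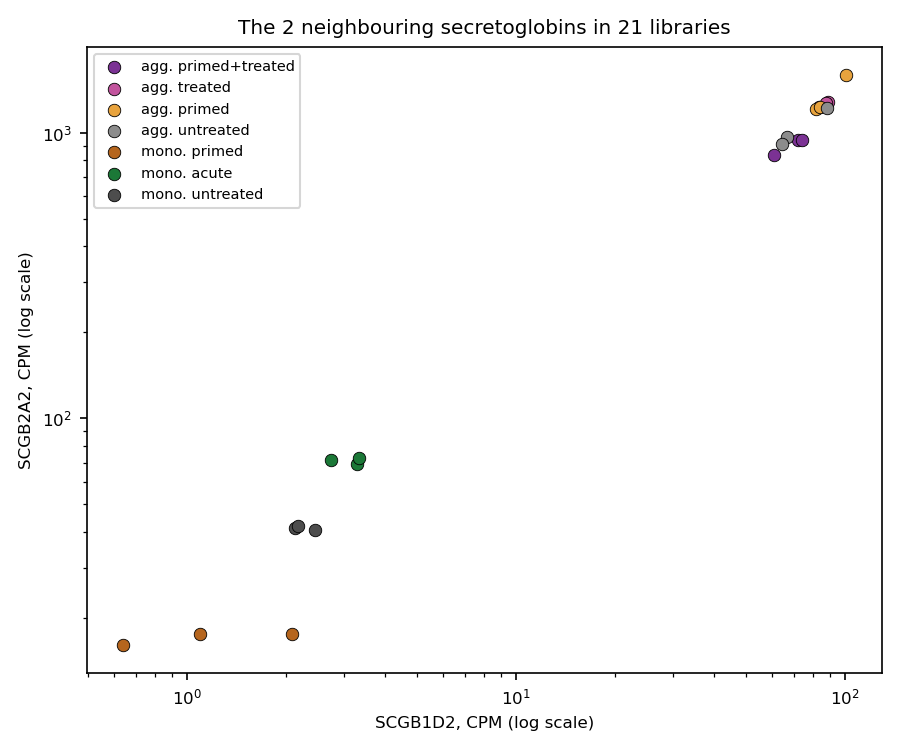
SCGB1D2 (x axis) against SCGB2A2 (y axis) in CPM, both on log scales, 1 point per library, coloured by group. The 12 aggregate libraries sit together at the upper right, from 60.7 to 100.6 CPM of SCGB1D2, and the 9 monolayer libraries at the lower left, from 0.638 to 3.33 CPM.

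A secretoglobin that was not among the 8 genes, SCGB2A1 (mammaglobin B), lies 28296 bases from SCGB1D2. It averaged 15.1 ± 2.98 CPM in untreated aggregates and 1.16 ± 0.304 CPM in untreated monolayers (SD, n = 3 each), a log2 change of 3.67 (SE 0.204, edgeR adjusted p = 1.87e-16). All 3 tested secretoglobins, of 10 listed, were thus higher in untreated aggregates, and 2 of the 3 are genes chosen for it.

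CEL was near the limit of detection in flat culture and clearly present in 3D. Its aggregate values were 21.3, 20.2 and 19.1 CPM with priming and treatment, 8.51, 9.76 and 9.39 CPM with treatment, 13.6, 16.1 and 12.2 CPM with priming and 16.8, 15.8 and 16.2 CPM without antibody. In monolayers it lay at 0.479, 0.383 and 0.379 CPM with priming, 0.659, 0.616 and 0.452 CPM with acute exposure and 0.561, 0.546 and 0.462 CPM without antibody, from 19, 36 and 34 counts over each group. The monolayer groups overlapped. Untreated aggregates stood 4.94 (SE 0.17) above untreated monolayers on the log2 scale. CEL is abundant in the acinar pancreas, and 2 of 14 listed acinar genes were measured. Their summed level was 0.119 to 0.235 CPM in untreated aggregates and 0.370 to 0.507 CPM in untreated monolayers, which is opposite in direction to CEL. The nearby copy CELP had at most 21 counts in any library and held 0 to 40% of the counts of the pair. The highest share was in primed monolayer replicate 3, with 4 counts of CELP beside 6 of CEL. Reads that could fall on either were not tested, so the low monolayer values of CEL are less certain.

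AZGP1 and PIP, the 2 apocrine products, were higher in aggregates by smaller steps. AZGP1 was at 896, 832 and 951 CPM in primed and treated aggregates, 934, 897 and 976 CPM in treated, 1096, 993 and 909 CPM in primed and 738, 748 and 843 CPM in untreated aggregates. Its levels in monolayers were 269.6, 249 and 239 CPM with priming, 422, 412 and 418 CPM with acute exposure and 319, 321 and 331 CPM without antibody. The 3 monolayer groups were separate, while each aggregate group overlapped its neighbour in the order. The copy AZGP1P1 held 0.485 to 1.23% of the counts of the pair.

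PIP was at 29.4, 22.8 and 26.7 CPM in primed and treated aggregates, 23.2, 23.8 and 26.1 CPM in treated, 24, 15.5 and 16.4 CPM in primed and 10.6, 10.7 and 12.7 CPM in untreated aggregates. In monolayers it was at 2.26, 1.66 and 1.64 CPM with priming, 8.4, 9.47 and 11.5 CPM with acute exposure and 4.88, 4.41 and 3.19 CPM without antibody. The acutely exposed monolayers overlapped the untreated aggregates, so PIP did not separate the culture forms as the secretoglobins, CEL and AZGP1 did. Log2 differences of untreated aggregates from untreated monolayers were 1.26 (SE 0.0618) for AZGP1 and 1.45 (SE 0.177) for PIP.

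MUC1 was at 431, 378 and 380.5 CPM in primed and treated aggregates, 409, 438 and 367 CPM in treated, 252, 259.8 and 259.6 CPM in primed and 324, 297 and 271 CPM in untreated aggregates. Monolayers had 110.2, 110 and 98.8 CPM with priming, 65.6, 64 and 71.5 CPM with acute exposure and 60.3, 65.3 and 64.3 CPM without antibody. The 2 aggregate groups given the later dose overlapped each other and lay above the other 2. The log2 difference of untreated aggregates from untreated monolayers was 2.23 (SE 0.07).

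CLCA2 was low everywhere and was the only 1 of the 8 genes whose mean was lower in untreated aggregates than in untreated monolayers. It was at 2.33, 2.23 and 4.01 CPM in primed and treated aggregates, 6.49, 7.47 and 7.34 CPM in treated, 4.02, 3.47 and 2.72 CPM in primed and 2.7, 4.03 and 4.99 CPM in untreated aggregates. In monolayers it was at 5.55, 5.75 and 5.5 CPM with priming, 4.39, 3.88 and 3.62 CPM with acute exposure and 5.33, 5.15 and 5.41 CPM without antibody. The log2 difference of −0.44 (SE 0.193) between untreated aggregates and untreated monolayers was −0.11 without the 6 libraries with MYH7.

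Levels were also scaled to the union of all annotated exons of a gene, which was 1508 bases for SCGB2A2 and 480 for SCGB1D2. This length can exceed that of the transcript made, so it compares genes only roughly. Per kilobase of it, SCGB2A2 led in untreated aggregates at 685 ± 109 CPM per kilobase, followed by AZGP1 at 288 ± 21.4. SCGB1D2 stood at 152 ± 27.6, MUC1 at 63.1 ± 5.59, PIP at 19.4 ± 2.07, CEL at 6.82 ± 0.206 and CLCA2 at 0.87 ± 0.256 CPM per kilobase (SD, n = 3). In untreated monolayers the order differed, with AZGP1 first at 119.9 ± 2.34, SCGB2A2 at 27.4 ± 0.415 and MUC1 at 13.4 ± 0.558 CPM per kilobase. All 8 genes together took 0.232 ± 0.0139% of counts in primed and treated aggregates, 0.275 ± 0.00512% in treated, 0.266 ± 0.0302% in primed and 0.22 ± 0.0178% in untreated aggregates. The share was 0.0379 ± 0.00164% in primed, 0.0577 ± 0.000933% in acutely exposed and 0.0455 ± 0.000575% in untreated monolayers.

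In untreated aggregates against untreated monolayers 6 of the 7 genes were called higher and 1 lower at an edgeR adjusted p under 0.05, where 64.1% of all genes were called, 32.9% higher and 31.1% lower. Nothing is read from that count, since the contrast took part in the choice of the genes. Of 11 tested mucins, without MUC1, 4 were higher and 3 lower (median log2 change 0.29, against 0.01 over all genes tested). The gel-forming mucin MUC5B averaged 308 ± 49.5 CPM in untreated aggregates and 53.9 ± 5.74 CPM in untreated monolayers (log2 2.51 (SE 0.162, edgeR adjusted p = 1.48e-09)). Of 20 apocrine and androgen-linked genes 8 were higher and 8 lower (median 0.034). The trefoil peptide TFF3 was higher (log2 2.70 (SE 0.199, edgeR adjusted p = 6.3e-14)) and the transporter ABCC11, which acts in apocrine secretion, was lower (log2 −2.28 (SE 0.104, edgeR adjusted p = 1.47e-19)). Milk and lactation genes were evenly split, with 5 of 15 higher and 5 lower (median 0.01), among them the lipid droplet protein PLIN2 at log2 1.78 (SE 0.137, edgeR adjusted p = 1.59e-13). Of 19 regulators of mammary secretion 8 were higher and 6 lower (median 0.08), led by the ETS factors ELF5 (log2 1.44 (SE 0.129, edgeR adjusted p = 7.81e-12)) and ELF3 (log2 1.34 (SE 0.0532, edgeR adjusted p = 3.32e-21)). Secretory machinery had 11 of 27 higher and 6 lower (median 0.10), with the vesicle-tethering proteins SYTL1 (log2 1.99 (SE 0.0988, edgeR adjusted p = 1.04e-17)) and SYTL2 (log2 1.85 (SE 0.104, edgeR adjusted p = 4.93e-17)).

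The difference between culture forms was also present within the other library set. Primed and treated aggregates stood above primed monolayers by 5.74 (SE 0.212) on the log2 scale for SCGB1D2, 5.73 (SE 0.128) for SCGB2A2 and 5.59 (SE 0.186) for CEL. PIP stood 3.83 (SE 0.199) above, MUC1 1.90 (SE 0.0684) and AZGP1 1.82 (SE 0.0631), while CLCA2 stood at −0.95 (SE 0.198). These aggregates had had a later dose as well, so 3D culture and that dose cannot be told apart here. Of the 7 genes 6 were called higher and 1 lower, where 63.9% of all genes were called, 31.9% higher and 32.1% lower. The same counts held for primed aggregates against primed monolayers, across the sets, where 68.2% of all genes were called, 34% higher and 34.2% lower. Nothing is read from these counts, since 3D culture took part in the choice of the genes.

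Acute exposure asks how flat cultures respond within 24 h, in a comparison that did not serve to choose the genes and lies within 1 library set. PIP, SCGB2A2 and AZGP1 rose. PIP averaged 9.8 ± 1.58 CPM in acutely exposed and 4.16 ± 0.875 CPM in untreated monolayers (SD, n = 3 each), a log2 change of 1.25 (SE 0.177, edgeR adjusted p = 7.31e-06). SCGB2A2 averaged 71.1 ± 1.56 CPM in exposed and 41.3 ± 0.627 CPM in untreated monolayers, a change of 0.78 (SE 0.11, edgeR adjusted p = 3.57e-05). AZGP1 averaged 418 ± 4.93 CPM in exposed and 324 ± 6.28 CPM in untreated monolayers, a change of 0.37 (SE 0.0613, edgeR adjusted p = 2.6e-05).

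All 3 exposed libraries were above all 3 untreated libraries for each of these genes. Thus 3 of the 7 genes passed, all of them higher, where 20.2% of all genes were called, 11.3% higher and 8.91% lower. Groups did not overlap for 5 of the 7, against 36.8% of all genes. SCGB1D2 was also separate, at 3.12 ± 0.327 CPM in exposed and 2.25 ± 0.176 CPM in untreated monolayers, but its change of 0.46 (SE 0.276, edgeR adjusted p = 0.275) did not pass. CLCA2 was separate in the other direction, at log2 −0.42 (SE 0.189, edgeR adjusted p = 0.116). MUC1 had a log2 change of 0.083 (SE 0.0713, edgeR adjusted p = 0.464) and CEL of 0.12 (SE 0.298, edgeR adjusted p = 0.86). Without the 6 libraries with MYH7, which leaves 1 library in each group, assumed to vary like the other groups, AZGP1 no longer passed (log2 0.35, edgeR adjusted p = 0.0614; 2.83e-07 to 0.0614 over its alternatives).

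Among related genes, 4 of 11 mucins other than MUC1 passed after acute exposure, all of them higher (median log2 change 0.24, against −0.02 over all genes). MUC3A averaged 27.6 ± 4.78 CPM in exposed and 10.7 ± 1.71 CPM in untreated monolayers (log2 1.37 (SE 0.106, edgeR adjusted p = 4.37e-12)). Of 20 apocrine and androgen-linked genes 3 rose and 3 fell (median 0.082), with the tryptophan pathway enzyme KMO at log2 1.12 (SE 0.0702, edgeR adjusted p = 2.6e-14) and the transcription factor TFAP2B at log2 −1.03 (SE 0.245, edgeR adjusted p = 0.00226). Of 19 regulators 7 rose and 1 fell (median 0.12). CEBPB changed by log2 0.89 (SE 0.192, edgeR adjusted p = 0.00375) and ELF3 by log2 0.84 (SE 0.0528, edgeR adjusted p = 2.6e-14), while the inhibitor of differentiation ID2 changed by log2 −0.54 (SE 0.0787, edgeR adjusted p = 3.27e-06). Secretory machinery had 8 of 27 higher and 2 lower (median 0.0097), and milk and lactation genes 1 of 15 higher and 1 lower (median 0.105).

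Primed monolayers stood on the other side of untreated monolayers from acutely exposed ones for the same 3 genes. SCGB2A2 averaged 17.1 ± 0.828 CPM in primed and 41.3 ± 0.627 CPM in untreated monolayers, PIP 1.85 ± 0.351 and 4.16 ± 0.875 CPM, and AZGP1 253 ± 15.5 and 324 ± 6.28 CPM, in that order (SD, n = 3 each). The log2 differences were −1.28 (SE 0.131) for SCGB2A2, −1.16 (SE 0.25) for PIP and −0.36 (SE 0.0621) for AZGP1. MUC1 was higher, at 106 ± 6.55 CPM in primed and 63.3 ± 2.63 CPM in untreated monolayers, a log2 difference of 0.75 (SE 0.0709). These 2 groups lie in different library sets, and the primed monolayers had 96 h of incubation after the exposure. Neither the set nor that added time can be told apart from priming. Of the 7 genes 1 was called higher and 3 lower, where 65.3% of all genes were called (33.7% higher and 31.6% lower). Nothing is read from that count, since priming took part in the choice of the genes.

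In primed against untreated aggregates, which lie in 1 library set, the apocrine products were higher. PIP averaged 18.7 ± 4.67 CPM in primed and 11.3 ± 1.21 CPM in untreated aggregates (log2 0.72 (SE 0.151)). AZGP1 averaged 999 ± 93.6 and 776 ± 57.8 CPM in these groups (log2 0.36 (SE 0.0605)) and SCGB2A2 1342 ± 213 and 1034 ± 164 CPM (log2 0.38 (SE 0.0953)). MUC1 was lower in primed aggregates, by −0.21 (SE 0.0651) on the log2 scale. Melanocyte genes moved with this contrast, with all 8 of the panel summed to 56.6 to 97.5 CPM in primed and 17.1 to 24.05 CPM in untreated aggregates, and striated muscle genes summed to 152 to 157 and 210.3 to 227 CPM in the same order. Their part in these differences was not tested. Of the 7 genes 3 were called higher and 1 lower, where 21.2% of all genes were called, 11.5% higher and 9.66% lower. Nothing is read from this count, since priming took part in the choice of the genes. Untreated aggregate replicate 1 bears on this count, which was 2 without it, and the edgeR count was 0 without the libraries with MYH7 (3 at an unadjusted p under 0.05), where 1 untreated aggregate library remained. For PIP, AZGP1, MUC1, SCGB2A2, SCGB1D2 and CLCA2 the difference with priming had the other sign in monolayers, and CEL alone kept its sign. The primed and untreated groups did not overlap in either culture form for PIP, AZGP1 and MUC1 only. The share of all genes for which this held is not given. The log2 difference of aggregates from monolayers in this respect was 1.88 (SE 0.291) for PIP, 0.72 (SE 0.0867) for AZGP1 and −0.96 (SE 0.0962) for MUC1. It was 1.65 for SCGB2A2, 1.11 for SCGB1D2, −0.29 for CLCA2 and 0.11 for CEL. Of the 7 genes 4 were called higher and 1 lower in it, where 57% of all genes were called, 27.6% higher and 29.4% lower. Nothing is read from that count either. The monolayer pair also differs in library set and in the 96 h of incubation after exposure.

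Treated aggregates were set against untreated ones to ask what a dose does to formed aggregates. PIP rose, at 24.4 ± 1.53 CPM in treated and 11.3 ± 1.21 CPM in untreated aggregates (SD, n = 3 each), a log2 change of 1.11 (SE 0.146, edgeR adjusted p = 1.3e-06). MUC1 rose, at 404 ± 35.6 CPM in treated and 297 ± 26.4 CPM in untreated aggregates, a change of 0.44 (SE 0.0645, edgeR adjusted p = 2.14e-06). CEL fell, at 9.22 ± 0.641 CPM in treated and 16.3 ± 0.496 CPM in untreated aggregates, a change of −0.82 (SE 0.109, edgeR adjusted p = 2.76e-07). For these 3 genes every treated library lay on 1 side of every untreated library, and the calls held without the libraries with MYH7.

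CLCA2 averaged 7.1 ± 0.532 CPM in treated and 3.91 ± 1.15 CPM in untreated aggregates, a log2 change of 0.86 (SE 0.187, edgeR adjusted p = 0.000432). AZGP1 changed by 0.27 (SE 0.0604, edgeR adjusted p = 0.000594) and SCGB2A2 by 0.29 (SE 0.0952, edgeR adjusted p = 0.0233). SCGB1D2 did not pass, at 0.25 (SE 0.116, edgeR adjusted p = 0.106). Without the libraries with MYH7, which leaves untreated aggregate replicate 3 alone, CLCA2 was at 0.50 (edgeR adjusted p = 0.153; 0.000111 to 0.153 over its alternatives), AZGP1 at 0.15 (edgeR adjusted p = 0.224; 9.32e-05 to 0.224) and SCGB2A2 at 0.046 (edgeR adjusted p = 0.809; 0.000146 to 0.809). SCGB2A2 also did not pass without replicate 1 or 2 of the untreated aggregates (edgeR adjusted p = 0.111 and 0.117) or replicate 1 or 3 of the treated ones (edgeR adjusted p = 0.0699 and 0.0593).

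In all, 5 of the 7 genes rose and 1 fell in treated aggregates, where 36.7% of all genes were called, 18.8% higher and 17.9% lower. Groups did not overlap for 6 of the 7, against 46.4% of all genes, and without the libraries with MYH7 3 of the 7 were called. The treated group differs from the untreated one also in age and library set, and these cannot be told apart from the dose. Kidney genes were summed to 10.3 to 33.2 CPM in treated and 0.153 to 0.999 CPM in untreated aggregates. Their part in these results was not tested.

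Among related genes, 8 of 11 mucins other than MUC1 passed in treated aggregates, all higher (median log2 change 0.83, against 0.0008 over all genes). MUC16 averaged 313 ± 20.2 CPM in treated and 157 ± 14.3 CPM in untreated aggregates (log2 0.995, SE 0.107, edgeR adjusted p = 1.12e-06). Regulators of mammary secretion had 9 of 19 higher and 1 lower (median 0.18), with ELF5 at log2 0.88 (SE 0.108, edgeR adjusted p = 6.79e-08) and the epithelial ETS factor EHF at log2 0.71 (SE 0.056, edgeR adjusted p = 5.58e-12). Apocrine and androgen-linked genes had 8 of 20 higher and 3 lower (median 0.098), with the protein disulfide isomerase family member AGR2 at log2 0.68 (SE 0.0873, edgeR adjusted p = 3.62e-06). Milk and lactation genes had 9 of 15 higher and 1 lower (median 0.33), and the lower one was PLIN2 (log2 −1.32 (SE 0.131, edgeR adjusted p = 8.98e-10)). SPP1 (osteopontin), which kidney tubules also make, led them (log2 4.83 (SE 0.669, edgeR adjusted p = 4.49e-05)). Secretory machinery went the other way, with 4 of 27 higher and 16 lower (median −0.23), including the COPII coat proteins SEC23A (log2 −0.58 (SE 0.0548, edgeR adjusted p = 2.72e-10)) and SEC24D (log2 −0.56 (SE 0.0553, edgeR adjusted p = 7.15e-10)).

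In primed aggregates the later dose went with changes in 6 of the 7 genes. The primed libraries also took part in the priming contrasts that partly chose the genes, so these tests are not independent of that choice. MUC1 rose, at 396 ± 30 CPM in primed and treated and 257 ± 4.14 CPM in primed aggregates (SD, n = 3 each), a log2 change of 0.62 (SE 0.0647, edgeR adjusted p = 1.14e-08). CEL rose, at 20.2 ± 1.1 CPM in primed and treated and 14 ± 1.98 CPM in primed aggregates, a change of 0.53 (SE 0.103, edgeR adjusted p = 0.000145). PIP rose by 0.50 (SE 0.137, edgeR adjusted p = 0.00692), at 26.3 ± 3.35 CPM in primed and treated and 18.7 ± 4.67 CPM in primed aggregates.

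SCGB2A2 fell, at 908 ± 59.5 CPM in primed and treated and 1342 ± 213 CPM in primed aggregates, a log2 change of −0.56 (SE 0.0954, edgeR adjusted p = 0.00018). SCGB1D2 fell with it, at 68.9 ± 7.16 and 88.8 ± 10.3 CPM in the same order, a change of −0.36 (SE 0.115, edgeR adjusted p = 0.0226). AZGP1 changed by −0.16 (SE 0.0603, edgeR adjusted p = 0.0399), and CLCA2 by −0.23 (SE 0.206, edgeR adjusted p = 0.444), which did not pass. In all, 3 genes rose and 3 fell, where 29.8% of all genes were called, 14.9% higher and 14.8% lower. Groups did not overlap for 4 of the 7, against 41.7% of all genes. AZGP1 did not pass without primed aggregate replicate 1 (log2 −0.092, edgeR adjusted p = 0.278) or 2 (edgeR adjusted p = 0.0721) or primed and treated replicate 1 (edgeR adjusted p = 0.0836) or 2 (edgeR adjusted p = 0.219), with 0.00829 to 0.278 over its alternatives. SCGB1D2 did not pass without primed replicate 1 or primed and treated replicate 2 (edgeR adjusted p = 0.0983 and 0.0982; 0.00403 to 0.0983 over its alternatives), nor PIP without primed replicate 2 (edgeR adjusted p = 0.0537; 4.08e-05 to 0.0537). CLCA2 passed without primed and treated replicate 3 (log2 −0.57, edgeR adjusted p = 0.0488; 0.0488 to 0.847 over its alternatives). This comparison too crosses the library sets and a 24 h difference in age, which cannot be told apart from the dose.

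**Figure D3:**
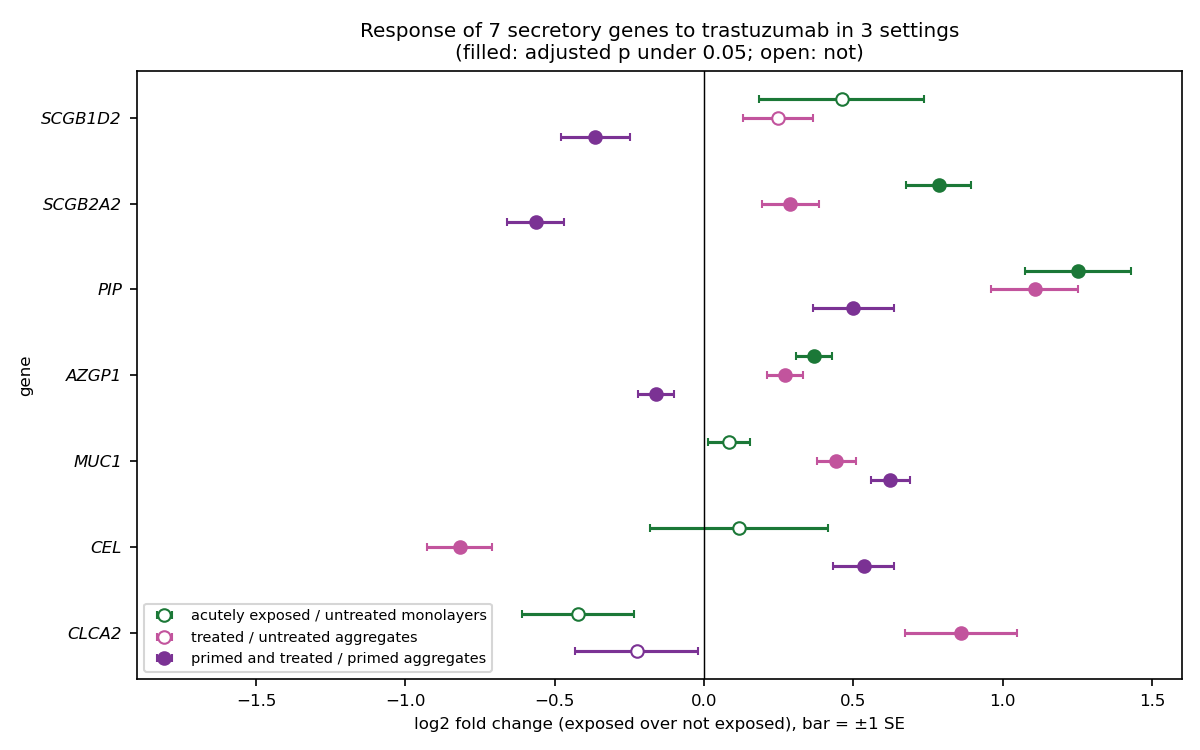
Log2 fold change with 1 SE (x axis) of 7 genes (y axis) after trastuzumab in acutely exposed over untreated monolayers, treated over untreated aggregates, and primed and treated over primed aggregates; filled points passed at an edgeR adjusted p under 0.05. PIP lies above 0 in all 3, from 0.50 to 1.25, as does MUC1. SCGB1D2, SCGB2A2, AZGP1, CEL and CLCA2 lie on opposite sides of 0 in the 2 kinds of aggregate, and of these SCGB2A2, AZGP1 and CEL passed in both.

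Among related genes, 4 of 11 mucins other than MUC1 rose and 1 fell with the dose in primed aggregates (median log2 change 0.26, against −0.0022 over all genes). The mucin that fell was MUC5B, at 151 ± 16.7 CPM in primed and treated and 315 ± 66.8 CPM in primed aggregates (log2 −1.06 (SE 0.15, edgeR adjusted p = 8.3e-05)), and MUC20 rose (log2 0.99 (SE 0.125, edgeR adjusted p = 2.34e-07)). Of 20 apocrine and androgen-linked genes 2 rose and 6 fell (median −0.035), with TFF3 at log2 −1.48 (SE 0.17, edgeR adjusted p = 3.85e-08). Milk and lactation genes passed for 5 of 15, all higher (median 0.11), with the iron-siderophore binding protein LCN2 at log2 1.46 (SE 0.157, edgeR adjusted p = 4.78e-06) and the immunoglobulin transporter PIGR at log2 0.83 (SE 0.16, edgeR adjusted p = 0.00119). Regulators passed for 3 of 19, all higher (median 0.071), led by CEBPB (log2 1.35 (SE 0.189, edgeR adjusted p = 7.38e-05)). Secretory machinery had 4 of 27 higher and 14 lower (median −0.22), with the chaperone HSPA5 at log2 −0.84 (SE 0.0593, edgeR adjusted p = 3.29e-12).

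The 2 dose responses are set side by side. Each pair of groups crosses the library sets and the 24 h of age in the same way, and whether set or age acts alike in both pairs was not tested. The difference uses the same groups as the priming contrasts that partly chose the genes. It is given with no p, and nothing is read from its count of called genes. For CEL the response in primed aggregates exceeded that in unprimed ones by 1.35 (SE 0.15) on the log2 scale. For SCGB2A2 the difference was −0.85 (SE 0.135), for SCGB1D2 −0.61 (SE 0.163), for PIP −0.61 (SE 0.201), for AZGP1 −0.43 (SE 0.0853) and for CLCA2 −1.08 (SE 0.279). MUC1 had the smallest, at 0.18 (SE 0.0911). Of the 7 genes 1 was called higher and 5 lower in this difference, where 12.5% of all genes were called (5.05% higher and 7.42% lower), and 2 without the libraries with MYH7.

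**Figure D4:**
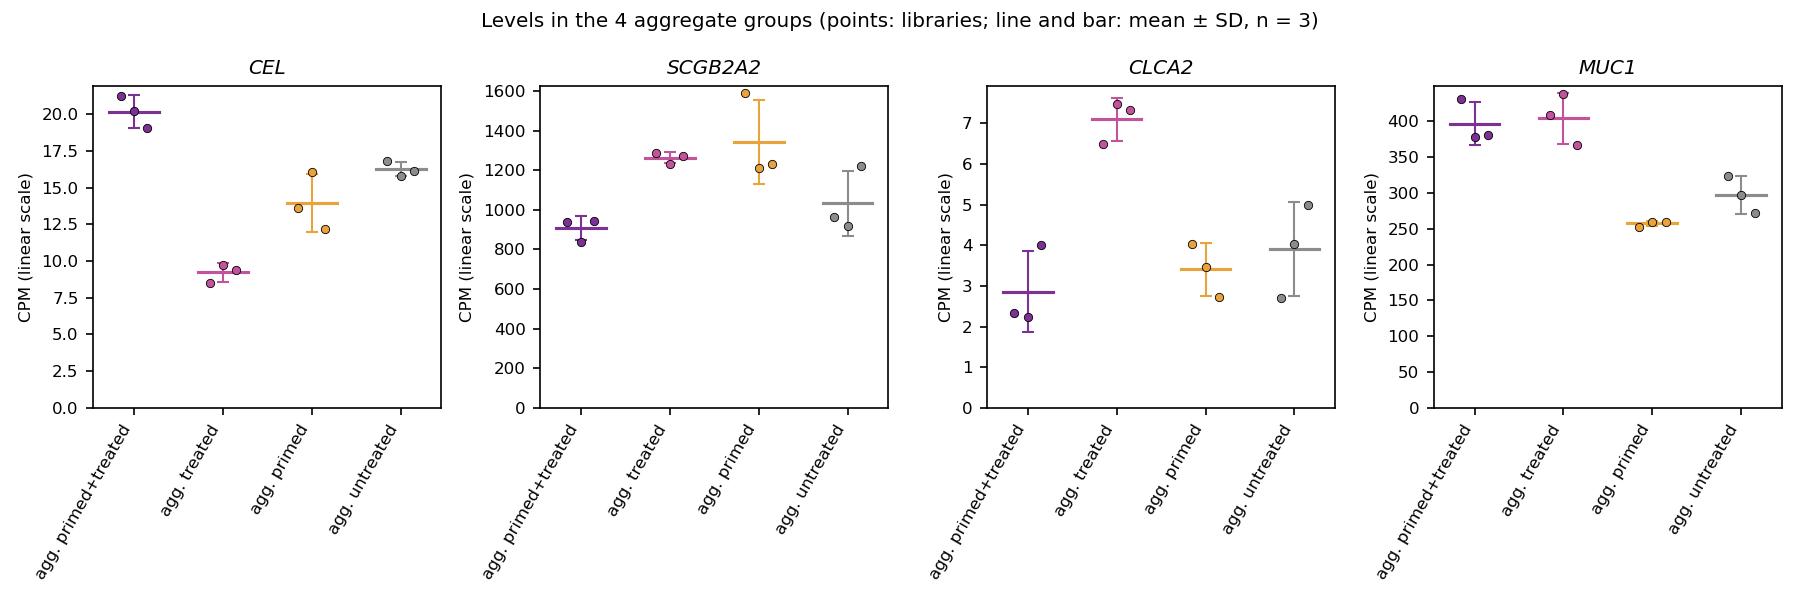
CPM (y axis, linear) of CEL, SCGB2A2, CLCA2 and MUC1 in the 4 aggregate groups (x axis), with points for libraries and lines and bars for the mean and SD (n = 3). CEL averages 20.2 CPM in primed and treated aggregates and 9.22 CPM in treated ones, and MUC1 396 and 404 CPM in the same order.

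Among dosed aggregates, which lie in 1 library set and have the same age, the primed ones had more CEL and less CLCA2 and SCGB2A2. CEL averaged 20.2 ± 1.1 CPM in primed and treated and 9.22 ± 0.641 CPM in treated aggregates (log2 1.13 (SE 0.106)). CLCA2 averaged 2.86 ± 1 and 7.1 ± 0.532 CPM in the same order (log2 −1.30 (SE 0.186)) and SCGB2A2 908 ± 59.5 and 1263 ± 27.9 CPM (log2 −0.48 (SE 0.0952)). SCGB1D2 averaged 68.9 ± 7.16 and 86.6 ± 2.61 CPM (log2 −0.33), and was not called. These 4 genes did not overlap between the groups, and the share of all genes for which this held is not given. PIP, MUC1 and AZGP1 differed by 0.11 (SE 0.133), −0.028 (SE 0.0639) and −0.067 (SE 0.0602). Calls were made for 3 of the 7 genes, 1 higher and 2 lower, where 7.98% of all genes were called, 3.18% higher and 4.8% lower. Nothing is read from that count, since priming took part in the choice of the genes.

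Against untreated aggregates, those both primed and treated were higher in PIP by 1.22 (SE 0.145) on the log2 scale, in MUC1 by 0.41 (SE 0.0645), in CEL by 0.31 (SE 0.102) and in AZGP1 by 0.20 (SE 0.0604). The secretoglobins were near the untreated level, at −0.19 (SE 0.0952) for SCGB2A2 and −0.082 (SE 0.116) for SCGB1D2, and CLCA2 was at −0.44 (SE 0.203). These 2 groups differ in both exposures, in age and in library set. Calls were made for 4 of the 7 genes, all higher, where 35.5% of all genes were called, 17.6% higher and 17.9% lower. Nothing is read from that count, since priming took part in the choice of the genes. Without the libraries with MYH7, 2 were called higher and 2 lower.

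LTF was at the floor in most libraries and high in a few. It had 1, 3 and 2 counts in primed and treated aggregates, 113, 71 and 3 in treated, 1, 0 and 0 in primed and 2, 0 and 1 in untreated aggregates. In monolayers it had 5, 10 and 25 counts with priming, 2, 0 and 0 with acute exposure and 0, 2 and 0 without antibody. The exact 95% Poisson interval, which covers counting error only, was 93.1 to 136 counts for treated replicate 1, 55.5 to 89.6 for replicate 2 and 0.619 to 8.77 for replicate 3. The 3 treated libraries thus differed far beyond counting error, and the third was at the floor of 3 counts. Since LTF passed the filter only through libraries of treated aggregates and primed monolayers, its tests against those groups are not given, and no fold is given against 3 counts over a group.

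The libraries with LTF were among the 9 with kidney transcripts. Over the 7 group means the genes most like LTF were KCNJ16 (r = 0.957), LRP2 (0.951) and ZNF544 (0.937), of which the potassium channel KCNJ16 and the endocytic receptor LRP2 are genes of kidney tubules. Over the 21 libraries, a likeness looked at after the values were seen, the closest was the immunoglobulin light chain gene IGKC (r = 0.815), then the kidney cadherin CDH6 (r = 0.806). IGKC had 27, 4 and 13 counts in primed and treated aggregates, 123, 57 and 7 in treated aggregates and 1, 3 and 24 in primed monolayers, with at most 2 in any other library. The summed kidney panel did not follow LTF library by library, at 29.9, 10.3 and 33.2 CPM in treated aggregates, 10.6, 43.2 and 34 CPM in primed and treated aggregates and 31.2, 19.7 and 11.4 CPM in primed monolayers. Of 13 neutrophil genes 5 were measured, led by S100A9. Whether LTF came from AU565 cells was not tested.

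**Figure D5:**
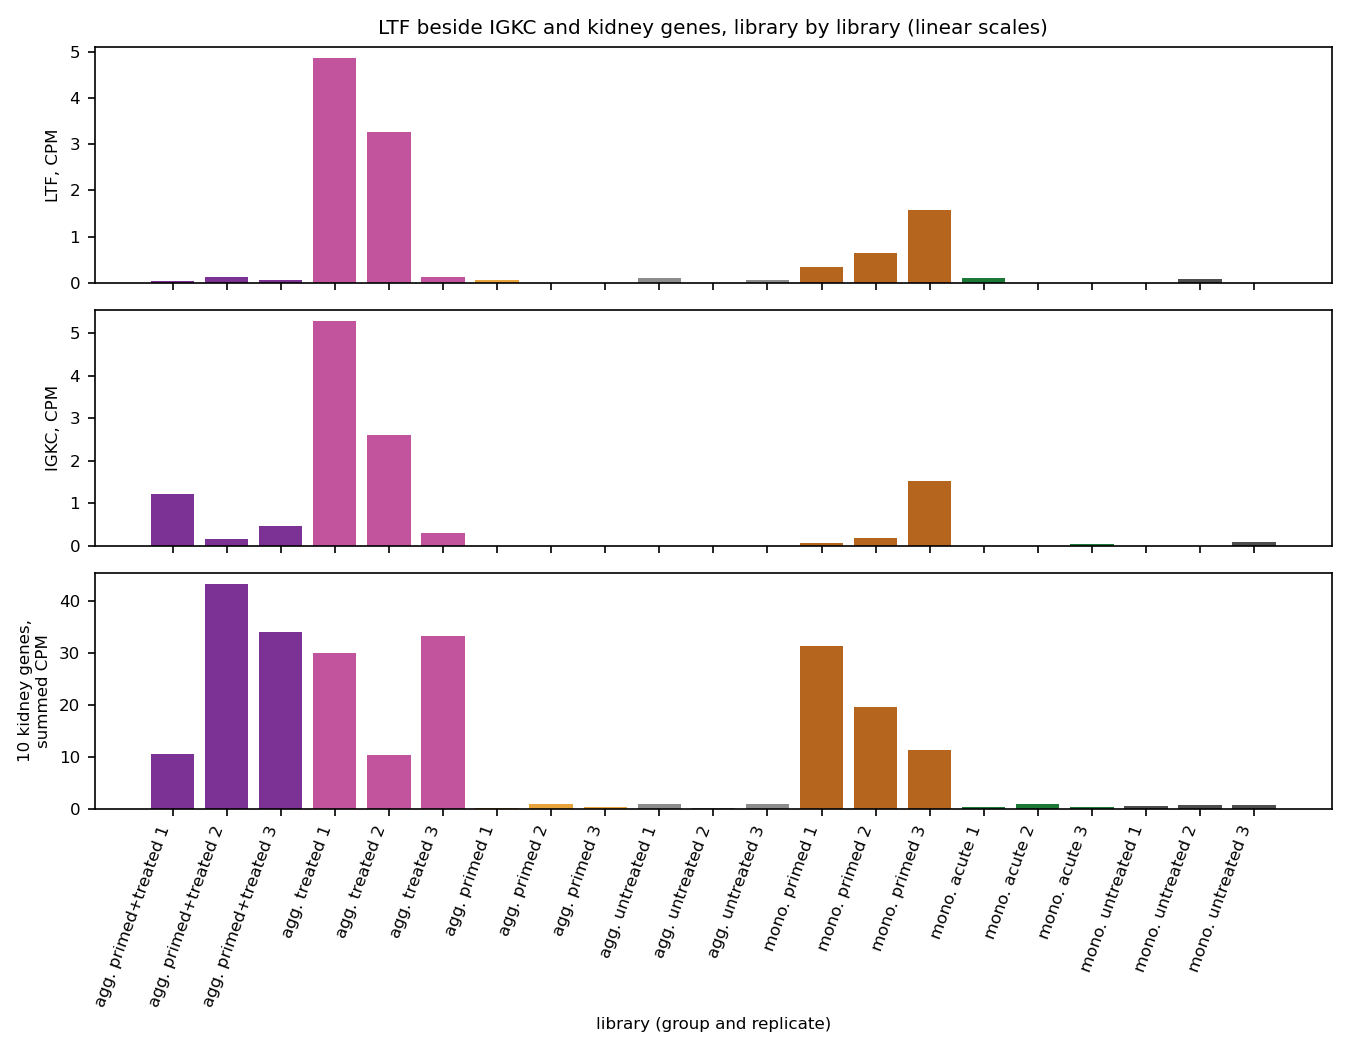
CPM of LTF (top), of IGKC (middle) and of 10 kidney genes summed (bottom) in each of the 21 libraries, on linear axes, bars coloured by group and named by group and replicate. LTF and IGKC are both highest in treated aggregate replicates 1 and 2, at 4.86 and 3.25 CPM of LTF, and kidney genes are seen in all 9 libraries of the 3 groups that also hold UMOD.

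The other members also had near neighbours in pattern over the 7 group means, as a description with no statement on function. The genes most like MUC1 were P2RX2 (r = 0.998), P4HTM and CLTRN, and those most like CEL were PCP2 (r = 0.998), ZSWIM9 and EIF1. SLC16A8 (r = 0.993), SLC2A10 and ATOSB were most like PIP, and POLD4, CCDC159 and THBS3 most like AZGP1. THBS3 lies 2673 bases from MUC1. CLCA2 had no gene as close, with GUCY1A1 (r = 0.927) first.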

How the data were processed

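Total RNA of 21 AU565 libraries was sequenced after TRIzol extraction and TruSeq preparation, per the labels' protocols. The deposited table holds raw counts per gene, which the authors made with featureCounts on hg38, per the submitters' processing notes, which also name limma and give no versions. Strand setting and handling of shared reads are not given in the sources used here. The 3 columns of primed aggregates are named primed although the sample titles are not, and were matched through the treatment protocol.

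The 8 genes, the 6 related lists, the 11 marker panels and the tests were chosen with earlier results of these data known. Counts were tested in edgeR 4.0.16 (R 4.3.3) with TMM scaling, filterByExpr, 1 mean for each of the 7 groups in 1 robust quasi-likelihood fit (14 residual degrees of freedom) and two-sided tests, with Benjamini-Hochberg adjustment over the 15969 genes tested of 16553. The threshold was an adjusted p of 0.05. The filter removed 584 genes, and 174 genes have no symbol. Replicate pairs differed by 2.4 to 10.7 times counting variance, with a biological coefficient of variation of 5.98%. The steps were tested on simulated counts. Of each related list at most the 3 called genes with the largest change and a mean of 1 CPM or more in 1 of the 2 groups could be named, and only some of them are. Likeness of pattern is Pearson's r of group means of log2 CPM (prior count 2). Positions, promoters and motifs come from RefSeq tables of GRCh38.p14, which need not be the annotation used upstream, and exon lengths from GENCODE. Counting intervals are exact, and floors are 3 counts. The 9 alternatives were DESeq2 1.42.0, limma 3.58.1 voom, RLE size factors, no filter, genes averaging 10 CPM or more, a fit of the compared groups alone, a block for the replicate number, omission of each replicate in turn, and omission of the 6 libraries with MYH7. The values reported use every sample.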

Additional observations from a re-analysis of the deposited data

Results flagged for a closer look

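For 2 genes the later dose went with opposite differences in primed and unprimed aggregates, with every dosed library on 1 side of every undosed library in each case. CEL was higher with the dose in primed aggregates and lower with it in unprimed ones, a difference of 1.35 on the log2 scale. SCGB2A2 was lower with the dose in primed aggregates and higher in unprimed ones, a difference of −0.85. Its rise in unprimed aggregates was small, at log2 0.29, with the nearest treated and untreated libraries at 1232 and 1221 CPM. With a replicate left out it was 0.20 to 0.42, and it did not pass in some of those fits. Both dose pairs cross the library sets and a 24 h difference in age, which cannot be told apart from the dose. For 3 genes primed and untreated libraries were separated in opposite directions in aggregates and in monolayers. The log2 difference between aggregates and monolayers was 1.88 for PIP, 0.72 for AZGP1 and −0.96 for MUC1. The monolayer pair crosses the library sets, and its primed libraries had 96 h of incubation after the exposure. No test of these 5 differences is given, because the priming contrasts took part in the choice of the genes. The shares of all genes with such opposite differences are not given.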

How the results depend on the processing

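Log2 changes of single genes changed sign under no alternative where they were called, and RLE size factors, DESeq2 and limma voom kept every count of called genes within 1.5 times its value. Among genes averaging 10 CPM or more, where LTF, CLCA2 and CEL were not tested, 4 genes were called in treated against untreated aggregates, 2 in primed and treated against treated aggregates, and 5 each in primed aggregates and in primed and treated aggregates against primed monolayers. Without the 6 libraries with MYH7, which left 1 library in 3 groups, assumed to vary like the others, the counts were 3 in primed against untreated monolayers, 0 by edgeR in primed against untreated aggregates (3 at an unadjusted p under 0.05), 3 in treated against untreated aggregates and 2 in the difference between dose responses. These counts and those that follow include LTF. Leaving out a replicate gave 2 to 5 calls in primed against untreated aggregates, 6 to 8 in treated against untreated aggregates and 4 to 7 with the dose in primed aggregates. Replicate numbers did not pair the samples, since 2 of 63 same-numbered pairs had deviations with r over 0.1. With the replicate number as a block, the pairing moved no count by over 1.5 times: 3 genes were called after acute exposure, 8 in treated against untreated aggregates and 6 with the dose in primed aggregates. CLCA2, LTF and the monolayer values of CEL and SCGB1D2 rest on few counts, so small differences in them were not detectable at this depth.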
